A study of Homo sapiens with 2 samples.

Results

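The transcripts described here encode the GW182 proteins (TNRC6A, TNRC6B and TNRC6C), the Argonautes (AGO1, AGO2, AGO3 and AGO4) and the Pumilio protein PUM2, which repress mRNAs in the cytoplasm. They were chosen by name, with earlier results of these data known, and 258 of 175546 deposited peaks belonged to these 8 genes. Peaks in exons and introns went to the gene that their annotation names. Any other peak went to the gene with the nearest transcription start site. All peaks came from a single comparison in wild-type HCCLM3, a line grown from a human hepatocellular carcinoma. RNA that precipitated with CRTC2, a coactivator of CREB, was sequenced in 1 library. Input RNA, taken before precipitation, was sequenced in 1 library. There was no replicate and no precipitation with a control antibody, so RNA bound to CRTC2 and RNA carried over by the precipitation cannot be told apart.

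Argonaute proteins carry microRNAs, which pair with target mRNAs mainly through a short seed. GW182 proteins bind Argonaute through glycine-tryptophan repeats and recruit the PAN2-PAN3 and CCR4-NOT deadenylases, after which the mRNA can be decapped and degraded. Pumilio proteins read a short element in 3′ UTRs and also call on CCR4-NOT. YTHDF2, the m6A reader in whose joint condensates with CRTC2 the series is interested, recruits the same deadenylase. The measurements below concern the mRNAs of these repressors, not the proteins or their targets.

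Each peak carries a fold from the authors' peak caller, which sets the RIP signal at the summit against the control, treated here as the input library. From that fold and its p-value, the whole number of RIP fragments and the input level around the summit were worked out. An interval after a fold is the exact Poisson 95% interval of the RIP fragments at a fixed input level, and it covers counting error only. The lowest input level, 0.0298, is called the floor, and 1 input fragment counted as 0.634. The q of a peak is the authors' value, and a peak or gene is called here at q of at most 0.05. Depth was low throughout. Summits in these genes held a median of 2 RIP fragments and at most 21, and 46.5% of the peaks rested on 1 fragment, against 46.2% of all peaks. Hepatocyte markers carried a peak in 12 of 13 cases, with none in SERPINA1, and markers of blood, endothelial, stromal and biliary cells in 3 of 12. In each list 1 gene was called, APOB with a highest fold of 3.88 among the former and PECAM1, an endothelial marker with 17 peaks, with 4.55 among the latter. That is 7.69% and 8.33% of the lists, against 11.3% of all genes with a peak. The lists include genes without a peak, so these shares are not like for like. Among markers with a peak, 1 of 12 and 1 of 3 were called. The APOB fold rested on 3 fragments at the floor, in a peak of 6408 bp, and the PECAM1 fold on 4 over 0.0982. A peak is not an expression level.

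RefSeq start-site windows (GRCh38.p14) were matched for 7 of the 8 genes, AGO2 being the other. The summit of a peak could be set in sequence at 1 of them, a TNRC6C start site where the fold was 2.45 (0.991 to 5.98). That peak rested on 3 fragments over an input level of 0.634 and was not called. The 30 bases around that summit, 5′ to 3′ on the plus strand at chr17:78004196-78004225, are shown with the summit base in capitals.
TNRC6C: aggaacgtttgatgGaagaaaagaaaaaga
The summit lay 27 bp before the annotated start, and 33.3% of these bases were G or C.

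Peaks were called in TNRC6A, TNRC6C, AGO3 and PUM2, and in none of TNRC6B, AGO1, AGO2 and AGO4. That is 4 of 8 genes, against 11.3% of the 19480 genes with a peak. Of the 258 peaks 10 were called (3.88%, Clopper-Pearson 95% interval 1.87 to 7.01), against 1.63% of all peaks. The intervals of shares, here and below, count each peak as independent. Peaks of the same gene may not be, so these intervals may be too narrow, and no excess over all peaks was tested. With the nearest start site for every peak, exon and intron peaks included, 2 of the 8 genes were called, TNRC6C and AGO3, against 11.8% of genes. At a stricter limit, −log10 q of at least 5, 0 of the 8 genes and 0.724% of all genes had a peak. The 8 genes are rich in peaks, with a median of 27, where all genes have 5. Among the 2901 genes with 17 to 67 peaks, the range of all but AGO4, 32.5% had a called peak, against 4 of 7 here. The highest fold per gene had a median of 4.04 over the 8 genes, against 2.83 over all genes and 3.67 over those with 17 to 67 peaks. It ran from 2.89 in AGO4 to 5.49 in TNRC6C, and 2.13% of all genes reached the TNRC6C value. With peaks counted by RefSeq gene span, AGO4 was again the lowest, but at 3.80, and AGO2 stood at 4.07. The intervals of the highest folds of all 8 genes overlapped, and no difference between genes was tested.

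**Figure D1:**
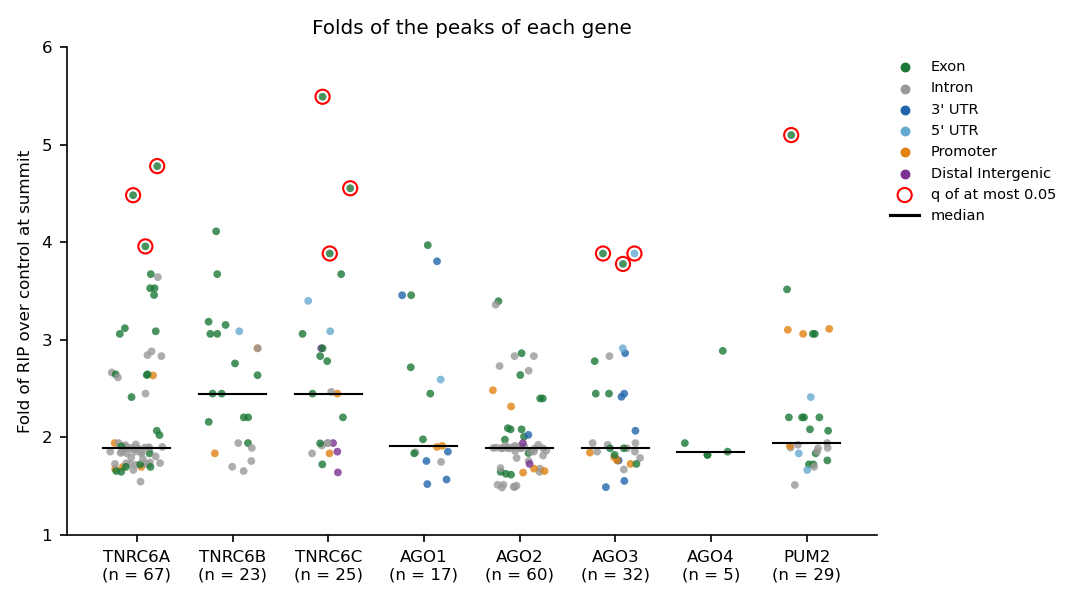
Fold of RIP over control (vertical axis) for each of the 258 peaks, by gene. Colours give the region class, black bars the median and red rings the 10 peaks at q of at most 0.05, which lie in 4 genes at folds from 3.78 to 5.49.

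The median fold of exon peaks was above that of intron peaks, here and in the whole list. By class, 98 of the 258 peaks lay in exons (38.0%, interval 32.0 to 44.2, against 30.4% of all peaks, but 29.6% with peaks counted by RefSeq gene span) and 106 in introns (41.1%, against 26.6%). Of the 10 called peaks 9 were exon peaks and 1 lay in a 5′ UTR. This is 9.18% of the exon peaks (4.29 to 16.7), against 2.98% of exon peaks in the whole list. The median fold was 2.43 in exons, on 4 fragments, and 1.89 in introns, on 1 fragment. Over all peaks these medians were 1.94, on 4 fragments, and 1.85, on 1 fragment. The 9 peaks of the 5′ UTR class had a median of 2.91, on 3 fragments, against 1.94 over all peaks of that class. In introns 88 of 106 peaks rested on 1 fragment (83.0%, against 85.8% of all intron peaks). Of these intron peaks 0 were called, with an upper limit of 3.42%, against 0.372% of all intron peaks. By family, 6 of 49 GW182 exon peaks were called, 2 of 35 Argonaute exon peaks and 1 of 14 PUM2 exon peaks. The 95% intervals of these shares, from 4.63 to 24.8%, from 0.70 to 19.2% and from 0.181 to 33.9%, overlapped.

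The genes differed in where their peaks lay. TNRC6A had 23 peaks in exons, 39 in introns and 5 in the promoter class, and AGO2 likewise had more in introns (37) than in exons (15), with 5 in the promoter class. TNRC6B had 14 in exons and 6 in introns, TNRC6C 12 and 5, and PUM2 14 and 8. AGO1 had 6 in exons and 2 in introns, AGO3 had 9 of each, and AGO4 had 5 in exons alone. The 5′ UTR class held 3 peaks of PUM2, 2 each of TNRC6C and AGO3, and 1 each of TNRC6B and AGO1.

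**Figure D2:**
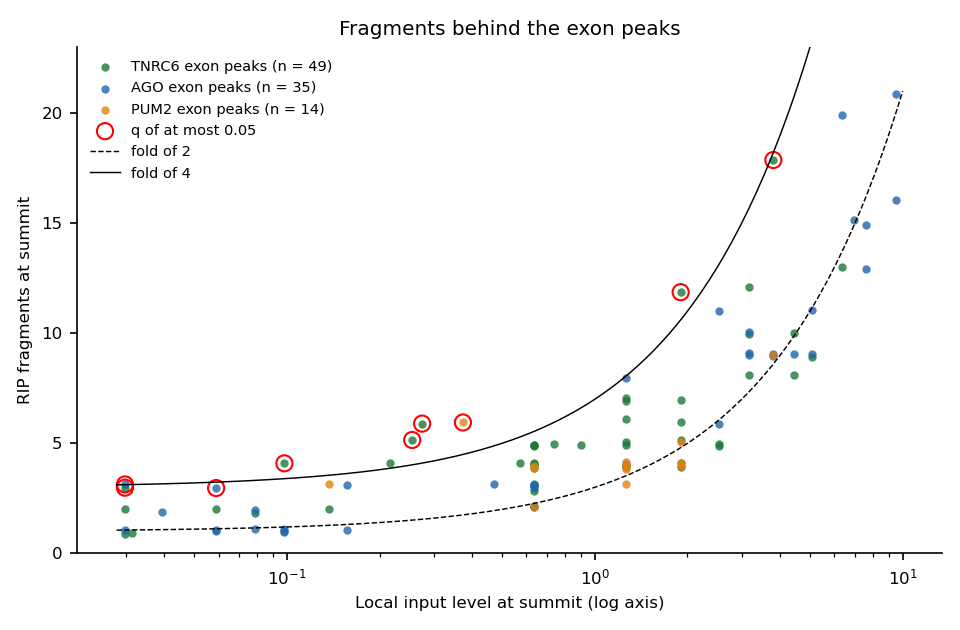
RIP fragments at the summit (vertical axis, points shifted slightly to part ties) against local input level (log axis) for the 98 exon peaks, by gene family. Lines mark folds of 2 and 4, and red rings the called peaks; those of AGO3 sit at 3 fragments and low input, while the AGO2 points reach 21 fragments near the line of fold 2.

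TNRC6A, the founding GW182 protein of human cells, had 67 peaks. It alone of the 8 genes missed no exon between the first and the last that carried a peak. All exons from 3 to 23 of the 24 in NM_001351850 carried a peak, 21 exons in all. The 23 exon peaks had a median fold of 2.65 on 6 fragments, and 16 of them lay above 1.94, the median of all exon peaks. The 3 called peaks were close together. In exon 6 (chr16:24790134-24790824) the RIP library held 18 fragments over an input level of 3.80, a fold of 3.96 (2.43 to 6.13) with q of 0.00359. In exon 8 (chr16:24794573-24794745) it held 12 over 1.90, a fold of 4.48 (2.48 to 7.57) with q of 0.00873. The highest fold, 4.78 (2.09 to 10.1), stood in exon 10 (chr16:24797499-24797593) on 5 fragments over 0.255, with q of 0.0193.

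These 3 exons belong to a stretch from exon 6 to exon 10 in which folds ran from 2.64 to 4.78, a stretch singled out after its values were seen. Exon 6 alone held 3 peaks, of 3.53, 3.96 and 2.64. Exons 7 and 9 stood at 3.46 and 3.67 and were not called. Before this stretch, exons 3, 4 and 5 stood at 1.66, 1.84 and 1.91. After it, exons 11 to 23 ranged from 1.65 to 3.53, the latter in exon 19. Introns held 39 TNRC6A peaks, 30 of them on 1 fragment. The highest of these, 3.64 in intron 4, rested on 3 fragments and was not called.

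TNRC6B, a paralog with the same role, had 23 peaks and no called peak. Its highest fold was 4.11 (1.72 to 9.24), in exon 9 of 24 (chr22:40273466-40273545), on 4 fragments over an input level of 0.216 and with q of 0.106. Its 14 exon peaks had a median fold of 2.70, close to that of TNRC6A, but on 4 fragments. Of these 13 lay above the median of all exon peaks. Peaks were annotated to 11 exons of NM_001024843, or 10 without a peak over 1 kb at exon 6, and the last, exon 24, stood at 3.19. Exon 5 of 23 in another transcript held 3 peaks, of 2.16, 3.15 and 3.06. At 5 of the exon summits RefSeq also lists an uncharacterised locus, and the list does not give the strand of a peak. The call in TNRC6A and TNRC6C without one in TNRC6B does not show that they differ. A difference between them was not tested, and the intervals of their highest folds overlap.

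TNRC6C, the third paralog, had the highest fold of the 8 genes. In exon 4 of 22 (chr17:78050323-78051413) the RIP library held 6 fragments over an input level of 0.275, a fold of 5.49 (2.51 to 11.03) with q of 0.00297. A peak on exon 15 (chr17:78091464-78091584) reached 4.55 (1.90 to 10.2) on 4 fragments over 0.0982, with q of 0.00644. The other called peak began near exon 6 and was 9482 bp wide (chr17:78065256-78074737). Its fold of 3.88 (1.57 to 9.48) rested on 3 fragments at the floor. The 12 exon peaks had a median fold of 2.87 on 3.5 fragments, the highest exon median of the 8 genes. They were annotated to 11 exons, from exon 4 to exon 19, or to 7 without the peaks over 1 kb. A pair of 5′ UTR peaks stood at 3.40 and 3.09.

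Wide peaks were common in TNRC6C. The median width of its 25 peaks was 378 bp, against 101 bp in the whole list, and 5 exceeded 10 kb. In TNRC6B 4 peaks exceeded 10 kb, the widest spanning 71088 bp. A TNRC6A peak in the promoter class was 147438 bp wide, with a fold of 1.94 on 1 fragment. A wide peak marks only the fold at its summit and cannot be set to 1 exon.

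AGO2, the Argonaute that can cut its target, had the most deeply covered exons of the 8 and no called peak. Its 15 exon peaks held from 9 to 21 fragments, a median of 11, over a median input level of 5.07. Their median fold was 2.08, and 10 of 15 lay above the median of all exon peaks. The highest stood in exon 17 of 19 (chr8:140535441-140535562) at 3.40 (1.84 to 5.85), on 11 fragments over 2.53 and with q of 0.159. Exon 2 of 18 stood at 2.86, with q of 0.107. The medians of fragments and of input level, but not that of the fold, were the highest of the 8 genes over exon peaks. The interval of the highest fold is the narrowest of the 8 highest folds. Peaks covered 14 of 18 exons of NM_001164623. Another 37 peaks lay in introns, 32 of them on 1 fragment, and over all its 60 peaks the median was 1 fragment.

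AGO1, AGO3 and AGO4, which lack the strong cutting activity of AGO2, lie side by side on chromosome 1, in the order AGO4, AGO1, AGO3. AGO1 had 6 exon peaks with a median fold of 2.58, all of which rested on 2 or more fragments. The highest, in exon 10 of 19 (chr1:35901980-35902247), stood at 3.97 (1.96 to 7.39) on 8 fragments over 1.27, with q of 0.128. A neighbouring peak in exon 9 reached 3.46 on 3 fragments. Neither was called.

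AGO3 had 3 called peaks, each on 3 fragments. The first, in the 5′ UTR class, was 23573 bp wide (chr1:35943495-35967067), and a second, at exon 14 of 19, was 4693 bp wide (chr1:36034683-36039375). Both stood at 3.88 (1.57 to 9.48) at the floor, with q of 0.00426. A narrow peak in exon 5 (chr1:35973375-35973537) reached 3.78 (1.53 to 9.22) over an input level of 0.0589, with q of 0.0259. The median of the 9 exon peaks was 2.45 on 2 fragments, and no AGO3 exon peak held more than 3. With at least 5 fragments required, AGO3 was no longer called.

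AGO4 was the thinnest of the 8 genes. It had 5 peaks, all in exons and with a median width of 3040 bp, of which 4 rested on 1 fragment at folds from 1.82 to 1.94. The other, 8013 bp wide, stood at 2.89 (1.20 to 7.91) on 2 fragments. That interval includes the highest folds of the 7 other genes, and a difference between AGO4 and any of them was not tested. The 3′ UTR peaks inside the AGO4 span, with folds of up to 3.80, are counted for AGO1.

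PUM2, which binds Pumilio elements in 3′ UTRs, had 29 peaks and 1 called. In exon 16 of 19 (chr2:20255187-20255241) the RIP library held 6 fragments over 0.373, a fold of 5.10 (2.33 to 10.2) with q of 0.0102. This was the second highest fold of the 8 genes. The next exon peak stood at 3.52. The 14 exon peaks had a median fold of 2.21 on 4 fragments, and 10 of them lay above the median of all exon peaks. They covered 13 exons of NM_001282790, except the peak of 3.52, which is annotated to another transcript. In the promoter class 3 of 4 PUM2 peaks stood at 3.06, 3.11 and 3.10.

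**Figure D3:**
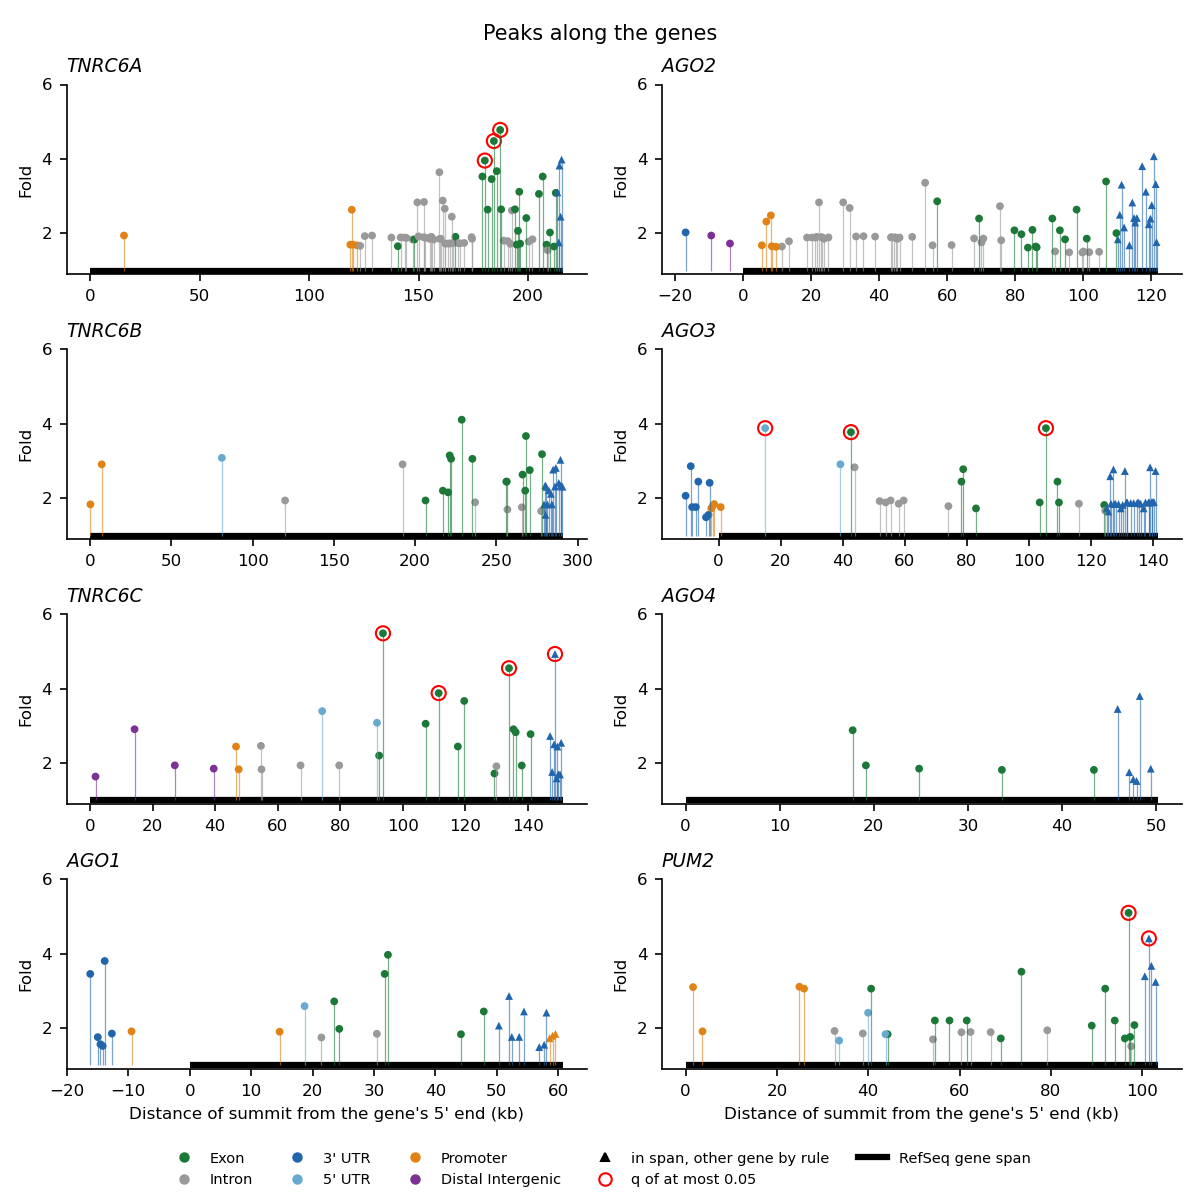
Fold of each peak (vertical axis) against the distance of its summit from the 5′ end of the RefSeq gene (kb), for the 8 genes. Circles are peaks counted for the gene, triangles peaks inside its span that the nearest start site gives to another gene, and red rings called peaks; 3′ UTR triangles crowd the right end of every gene, and 3′ UTR circles of AGO1, AGO2 and AGO3 lie before their genes.

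The 3′ UTR peaks counted for these genes lay in other genes. By the nearest start site 15 peaks in the 3′ UTR class were counted, and 0 of them had its summit inside the RefSeq span (GRCh38.p14) of the gene it was counted for. The 6 counted for AGO1 lay in AGO4, the 8 counted for AGO3 lay in AGO1, and the 1 counted for AGO2 lay in PTK2, a kinase gene upstream. In the spans of the 8 genes there were 91 peaks of this class, and TNRC6A, TNRC6B, TNRC6C, AGO4 and PUM2 had none by the nearest start site. They were given to SLC5A11 in the case of TNRC6A, ADSL for TNRC6B, TMC6 for TNRC6C, CHRAC1 for AGO2, TEKT2 for AGO3 and SDC1 for PUM2. Counted by span, the 8 genes held 331 peaks, 27.5% in the 3′ UTR class, against 13.8% of all peaks. The latter share is not like for like, since it also counts peaks that lie outside any gene span. At 2 of the 9 summits in TNRC6C, RefSeq also lists TMC6.

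Among these 91 peaks the median fold was 2.21, and 2 were called (2.20%, 0.267 to 7.71, against 0.926% of all 3′ UTR peaks). The called peak of TNRC6C (chr17:78106200-78106641) stood at 4.93 on 5 fragments over 0.216, with q of 0.00873. That of PUM2 (chr2:20250715-20250838) stood at 4.41 on 9 fragments over 1.27, with q of 0.0415. All 4 of the PUM2 peaks in this class stood at 3.24 or more, on 3 to 11 fragments. The 5 of TNRC6A ran from 1.76 to 3.98 and the 15 of TNRC6B from 1.55 to 3.03. The 17 of AGO2 ran from 1.68 to 4.07 on a median of 8 fragments, and the closest to a call had a fold of 3.81 on 12 fragments, with q of 0.0604. In AGO3 22 of 27 rested on 1 fragment and the highest was 2.83. The 8 in AGO1 stayed at or under 2.86, and the 6 in AGO4 included 3.46 and 3.80, above every exon peak of AGO4. With peaks counted by span, the 4 genes with a called peak were again 4 of 8, against 11.6% of genes.

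**Figure D4:**
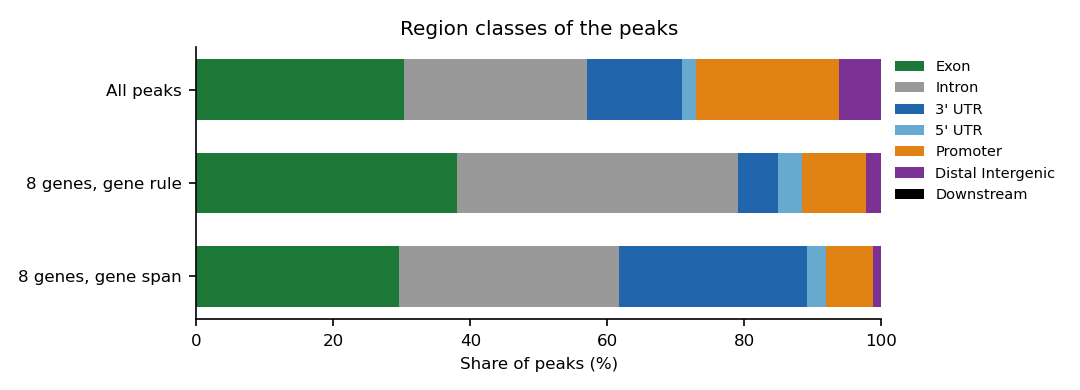
Share of peaks (%) by region class for all 175546 peaks, for the 258 peaks counted by the gene rule and for the 331 peaks inside the spans of the 8 genes. The 3′ UTR share is 13.8%, 5.81% and 27.5%; the first also counts peaks outside any gene span, which the last leaves out.

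Other genes of microRNA biogenesis, deadenylation, decapping and Pumilio repression were called in 14 of 58 cases (24.1%, against 11.3% of genes with a peak). Of the 58 genes 56 had a peak, so these shares are not quite like for like. Their highest folds had a median of 3.12, against 4.04 over the 8 repressors and 2.83 over all genes with a peak. These pathway genes had a median of 14 peaks. Among the 10548 genes with 5 to 67 peaks, the median of the highest folds was 3.09 and 17.2% were called. The highest was that of DICER1, which cuts microRNA precursors, at 6.65 (3.29 to 12.4) on 8 fragments in the promoter class, and 5 of its 55 peaks were called. DROSHA (3.67) and DGCR8 (3.09), which make those precursors in the nucleus, had no called peak.

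Of the 11 CCR4-NOT subunits on the list, with 6 to 46 peaks each, 4 were called. Among all genes, 17.2% of those with 5 to 67 peaks and 32.5% of those with 17 to 67 were called. CNOT4 reached 6.12 (3.13 to 11.1) and CNOT6L, a catalytic deadenylase, 5.67 (2.48 to 12.0), the latter in a peak of 10273 bp. CNOT6 (4.90), its close paralog, and CNOT10 (4.55) were the others. The 7 subunits not called had highest folds from 2.78 to 4.28, with the scaffold CNOT1 at 3.11 on 10 fragments. PAN2 (2.77) and PAN3 (3.40), the other deadenylase that GW182 proteins recruit, had no called peak, while PARN did (4.90, in a peak of 51704 bp on an alternate contig). Beside the same shares of all genes, 4 of 10 genes of decapping and decay from the 5′ end were called. These were the helicase DDX6 (4.90), the decapping cofactor DCP1A (4.63), the exonuclease XRN1 (4.81, 13310 bp wide) and LSM14A (3.78, on 3 fragments and on an alternate contig). The other 6 had highest folds from 2.89 to 3.80. With the main chromosomes alone, 12 of the 58 genes were called, and the share of all genes under that limit is not given here.

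The poly(A)-binding protein gene PABPC1 was called at 2.78 (1.91 to 3.93), on 30 fragments over 10.1. NORAD, a non-coding RNA that binds Pumilio proteins, was called at 3.01 (1.95 to 4.46) on 23 fragments. TUT4, which adds uridines to RNA ends, was called at 4.40 on 4 fragments. There was no peak in NANOS2 or LIN28B. By the same rule CRTC2 had 9 peaks and YTHDF2 23, with 0 called in either. The list was chosen with earlier results known, so these counts are a description.

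**Figure D5:**
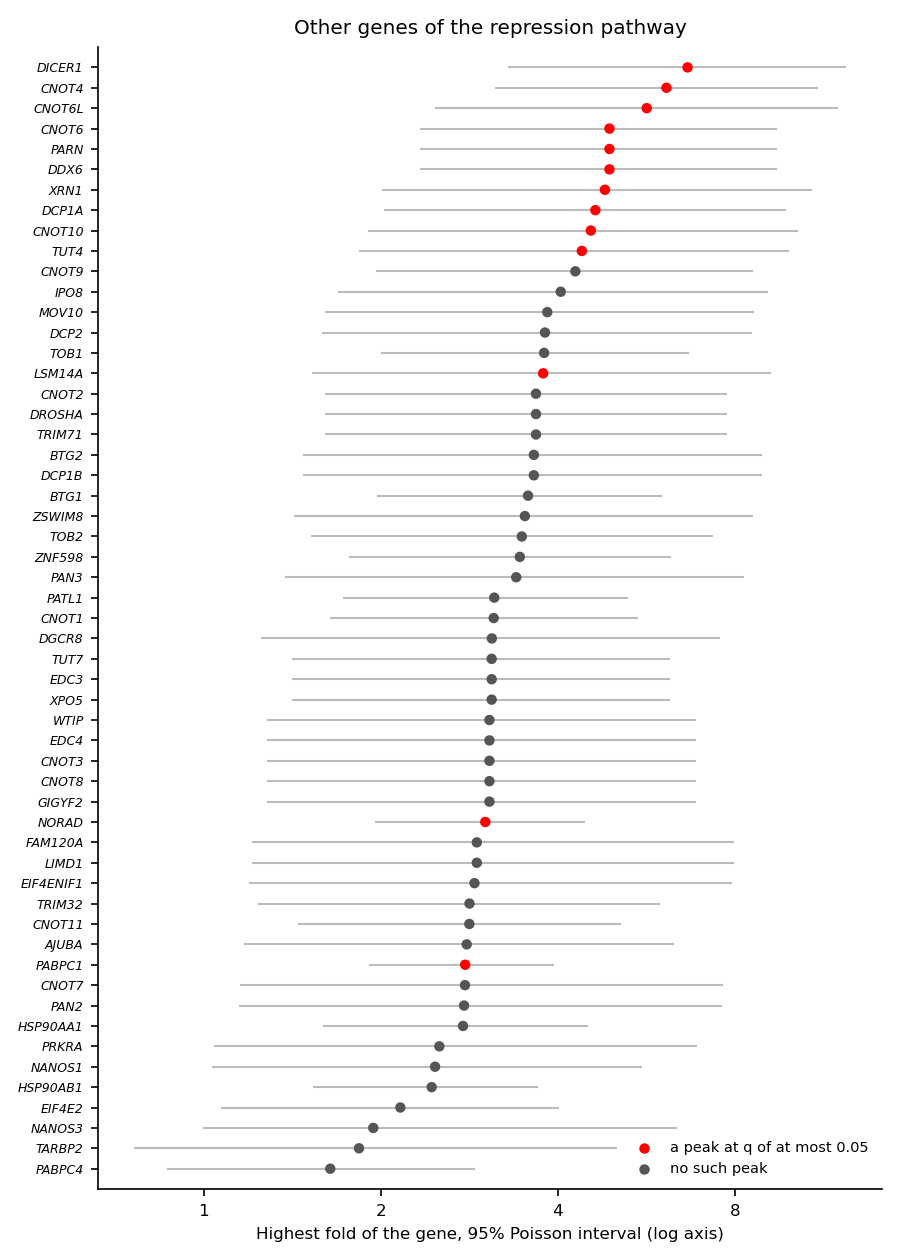
Highest fold (log axis) of 55 other pathway genes with a peak, with the exact Poisson 95% interval of its RIP fragments. Red points are the 13 called genes among them; folds run from 1.64 to 6.65 and most intervals overlap.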

How the data were processed

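RNA precipitated with CRTC2 and input RNA from HCCLM3 cells were compared, 1 library each. The submitters' processing notes name MACS2 and HISAT2, and hg38 as the build. Version numbers, options and the treatment of reads that paralogs share were not given in the sources used here. Each deposited fold is a ratio on a linear scale. The deposited −log10 p and −log10 q values (p-value and q-value columns) were identified by place and values, because their headers were spoiled. The deposited score equals 10 times −log10 p rounded down and was not used. The lowest −log10 p was 1.30.

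Fragments and input levels were solved from fold and p, with a pseudocount of 1 and a Poisson tail; a whole number met both within 0.001 for 100% of peaks, and for 97.5% it was the only one. On 20000 peaks simulated with that same pseudocount and Poisson tail the solution was right for 100%. This checks the arithmetic alone, not whether the deposited values follow that model. Python 3.11.15, pandas 2.3.3 and scipy 1.17.1 were used. RefSeq gene spans are those of GRCh38.p14. No test was made across genes or samples. The 8 genes and the lists, with the rule that names genes (all 8 with their called peaks, neighbours that share a peak, up to 10 called pathway genes by q, pathway genes without a peak, CRTC2 and YTHDF2), were chosen with earlier results of these data known. The other called pathway genes, and DROSHA, DGCR8, CNOT1, PAN2 and PAN3, were added after their values were seen. The values of 1 pathway gene are not reported here, though it is in the counts of the list.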

Additional observations from a re-analysis of the deposited data

How the results depend on the processing

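Counting peaks by RefSeq span was chosen after seeing the data. No result has a replicate check, and depth limits every fold: 120 of 258 peaks rest on 1 fragment. The number of genes with a called peak (4 of 8) was 2 with the nearest start site for every peak and 0 at −log10 q of at least 5. Under the other alternatives it was 3 or 4, and it was 3 with at least 5 fragments, without AGO3. With exonic peaks alone it was 4, where 11.1% of genes with an exonic peak were called. The called pathway genes (14) numbered 0 at −log10 q of at least 5 and from 10 to 15 otherwise. The share of all genes called under limits on fragments, width or chromosomes is not given here. The counts under those limits therefore have no background. The number of peaks (258) was 167 with the nearest start site, 58 with at least 5 fragments, 122 in the exonic classes and 10 among called peaks. The share in exons (38.0%) came to 18.0%, 79.3% and 90.0% under the first, second and last of these limits, 13.0% weighted by width and 29.6% by span. The median of the highest folds (4.04) ran from 3.58 to 4.94 over its alternatives. No paired analysis was possible because each group has 1 library.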

Other observations

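The 258 peaks of these 8 genes took only 133 distinct folds, because most summits hold few fragments over few possible input levels. A fold of 1.94 on 1 fragment at the floor was shared by 12 of them and by 14946 peaks in the whole list, and 1.89 on 1 fragment by another 12. Of 20 peaks at the floor, 3 were called, all on 3 fragments and between 4693 and 23573 bp wide. All 3 had the same fold, 3.88, which 290 peaks in the whole list share. The whole list has 18068 peaks at the floor, and the share of them that was called is not given here. The count of 3 in 20 therefore has no background to be set against. Of the 10 called peaks, 6 were at most 1 kb wide and 5 held at least 5 fragments.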
